A study of Homo sapiens with 24 samples.

Results

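The hypoxia and glycolysis genes are a list of 37 named human genes, of which 18 encode glycolytic enzymes or their PFK-2 regulators and 19 are other targets of the hypoxia-inducible factors (HIFs). Members had to be listed by name in the count table and to hold at least 10 counts over all libraries. All 37 met that rule, out of 28278 genes in the table and 19687 with at least 10 counts, and all 37 passed the filter on low counts and were tested among 15642 genes. RNA was sequenced from TYUC-1, a human cancer line labelled as a neuroendocrine carcinoma of the esophagus and grown in suspension. The cells carried a doxycycline-inducible construct for TAp63 in one line and for ΔNp63 in the other, isoforms of the squamous transcription factor p63 that differ at the N terminus. The study asks what the isoforms do to squamous and neuroendocrine identity.

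In the TAp63 line, cells were taken after 1, 3 or 6 days of doxycycline at 1 µg/ml within a 6 day course, against day 0 cells of that line that received DMSO for all 6 days. The ΔNp63 line had the same days and its own day 0. Each of the 8 groups had 3 libraries. They are described as biological replicates, but the labels do not say whether the cultures were separate, so a p-value here covers library-to-library spread, which may be technical. A treatment label also gives EPZ-6438, which blocks the histone methyltransferase EZH2, with the same number of days as doxycycline, while titles and induction labels name p63 induction only. Whether the inhibitor was present is not settled by the labels, and its effect cannot be told apart from that of induction. A line given doxycycline but lacking p63 was not analysed here, and nothing in the labels says whether either line is 1 clone. Oxygen was not recorded, so the list is a readout of transcripts and not of oxygen supply.

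Glycolysis splits glucose to pyruvate, which lactate dehydrogenase reduces to lactate when the pathway runs ahead of the mitochondria. In low oxygen the prolyl hydroxylases EGLN1 to EGLN3 stop marking HIF α subunits for destruction by VHL, and HIF dimers bind ACGTG or GCGTG cores near genes for glucose uptake, glycolytic enzymes, acid export, blood vessel growth and mitophagy. Many tumour lines express this programme in culture at ordinary oxygen, and several of its genes are also read by other factors.

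Library totals ran from 1530847 to 22019974 counts. The lowest was replicate 3 of ΔNp63 day 1 (the next was 6375963), and this library stood apart from the other 23 libraries on a first principal component with 49.6% of the variance (-193.9, against -16.997 to 24.9). Among the members, 9 lay above and 16 below the range of the other 23 libraries in that library. HK1 was at 917 CPM there, against 132 to 216 CPM elsewhere, SLC2A3 was at 84.5 CPM, against 1.42 to 7.50 CPM, and CA9 was at 314 CPM, against 843 to 1537 CPM. CPM are counts scaled to the library's TMM-adjusted total and are not divided by gene length, so levels are compared between libraries and not between genes. TP63, the induced gene, was at 326 to 1033 CPM in the induced libraries, except for 69.2 CPM in the library that stood apart, and at 2.90 to 4.94 CPM at day 0 of both lines. Of the neuroendocrine markers, CHGB was at 8.48 to 35.3 CPM and DLL3 at 13.4 to 27.8 CPM in the other 23 libraries, while CHGA was at 0.14 to 1.11 CPM and INSM1 at 0.13 to 0.78 CPM; the tuft cell factor POU2F3 was at 123 to 244 CPM.

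Members were tested in 2 fits with edgeR's quasi-likelihood test and Benjamini-Hochberg adjustment over all genes, called at an adjusted p under 0.05. The first held all 24 libraries with a mean per group. The second, called the paired fit here, left out the library that stood apart and held the replicate number as a block. Same-numbered libraries deviated together in it, and without that library the correlation of every same-numbered pair was above 0.1. In the 24-library fit no member was called in any of the 9 comparisons, 6 of them against day 0, 2 of the difference between the lines' responses and 1 between the lines at day 0. Unadjusted p-values under 0.05 were held by 4, 3 and 1 members at days 1, 3 and 6 of TAp63 and by 13, 3 and 2 members at days 1, 3 and 6 of ΔNp63, and by 0 members in the other 3 comparisons. The matching shares of all genes tested were 1.98%, 4.68% and 4.09% at those days of TAp63 and 12.2%, 12.3% and 9.33% at those days of ΔNp63. The 13 members at ΔNp63 day 1 include HK1 and SLC2A3, higher there with the library that stood apart. DESeq2 called 5 members at ΔNp63 day 1, where it called 3.18% of all genes, and 0 in the other 8 comparisons. The shares of all genes called by edgeR in the 24-library fit were 0.121%, 0.435% and 0.441% at days 1, 3 and 6 of TAp63, 0.0959%, 2.2% and 2.03% at those days of ΔNp63, 0.0448% and 0.0831% for the differences at days 3 and 6, and 0.0128% between the lines at day 0.

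Most members were lower at day 1 than at day 0 in both lines, enzymes and other targets alike, by a small amount at the median and by more in genes such as NDRG1 and ADM. Their median log2 change was -0.19 at TAp63 day 1 and -0.32 at ΔNp63 day 1, or -0.28 without the library that stood apart, while the median over all genes tested was 0.0014 and 0.0099. Set against the same-numbered day 0 library, 20 of the 37 members were lower in all 3 pairs at TAp63 day 1, as were 16.5% of all genes tested, and 0 were higher in all 3, as were 13.6%. At ΔNp63 day 1, where 2 pairs remained, 36 of 37 were lower in both, as were 33.8% of all genes tested, and 0 were higher in both, as were 31.3%. ANGPTL4 was the member outside the 36. At day 3, 5 members were lower and 3 higher in all 3 pairs of TAp63, beside 19.4% and 19.9% of all genes, and 19 were lower and 0 higher in all 3 pairs of ΔNp63, beside 28% and 26.1%. By day 6 the direction was mixed: 9 members were lower and 8 higher in all 3 pairs of TAp63, and again 9 and 8 of ΔNp63, beside 19.2% and 18.3% of all genes in TAp63 and 21.6% and 21.7% in ΔNp63. These counts describe the libraries and are not tests. ALDOA, whose level is not a measure of the gene for a reason given below, is among the members counted lower. This holds for ΔNp63 day 1, day 3 of both lines and TAp63 day 6. It also enters the medians.

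**Figure D1:**
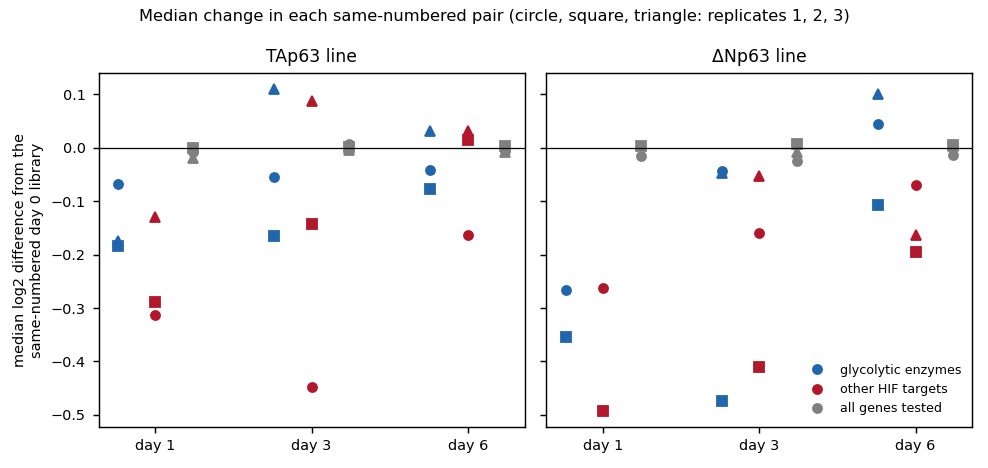
Median log2 difference of 18 glycolytic enzymes, 19 other HIF targets and all genes tested from the same-numbered day 0 library (y axis), by day of induction (x axis), in the TAp63 line (left) and the ΔNp63 line (right); each symbol is 1 pair of libraries. Both classes lie below 0 in all pairs at day 1, the pairs spread apart at day 3, and the medians of all genes stay near 0.

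Enzymes and other targets had close medians at day 1 over the groups, though not in each pair. At TAp63 day 1 the median change was -0.17 over the 18 glycolytic genes and -0.23 over the 19 other targets, and at ΔNp63 day 1 it was -0.32 and -0.34. In pairs 1 to 3 of TAp63 day 1 the medians were -0.07, -0.18 and -0.17 for the enzymes. Those of the other targets were -0.31, -0.29 and -0.13. At day 3 the glycolytic median was -0.02 in TAp63 cells and -0.20 in ΔNp63 cells, and that of the other targets was -0.17 and -0.19. At day 6 the glycolytic medians were -0.03 in TAp63 cells and 0.01 in ΔNp63 cells, beside -0.07 and -0.15 for the other targets. The difference between the lines' responses was called for 0 members at day 3 and 0 at day 6 in the paired fit too, where 0.944% and 1.87% of all genes were called; DESeq2 also called 0. Unadjusted p-values under 0.05 were held by 6 and 3 of the 37 members in that fit, beside 13.1% and 11.01% of all genes. At day 0 the lines differed in 0 members by either fit and by DESeq2, with 0.171% of all genes called in the paired fit and 1 member at an unadjusted p under 0.05, as were 5.91% of all genes.

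**Figure D2:**
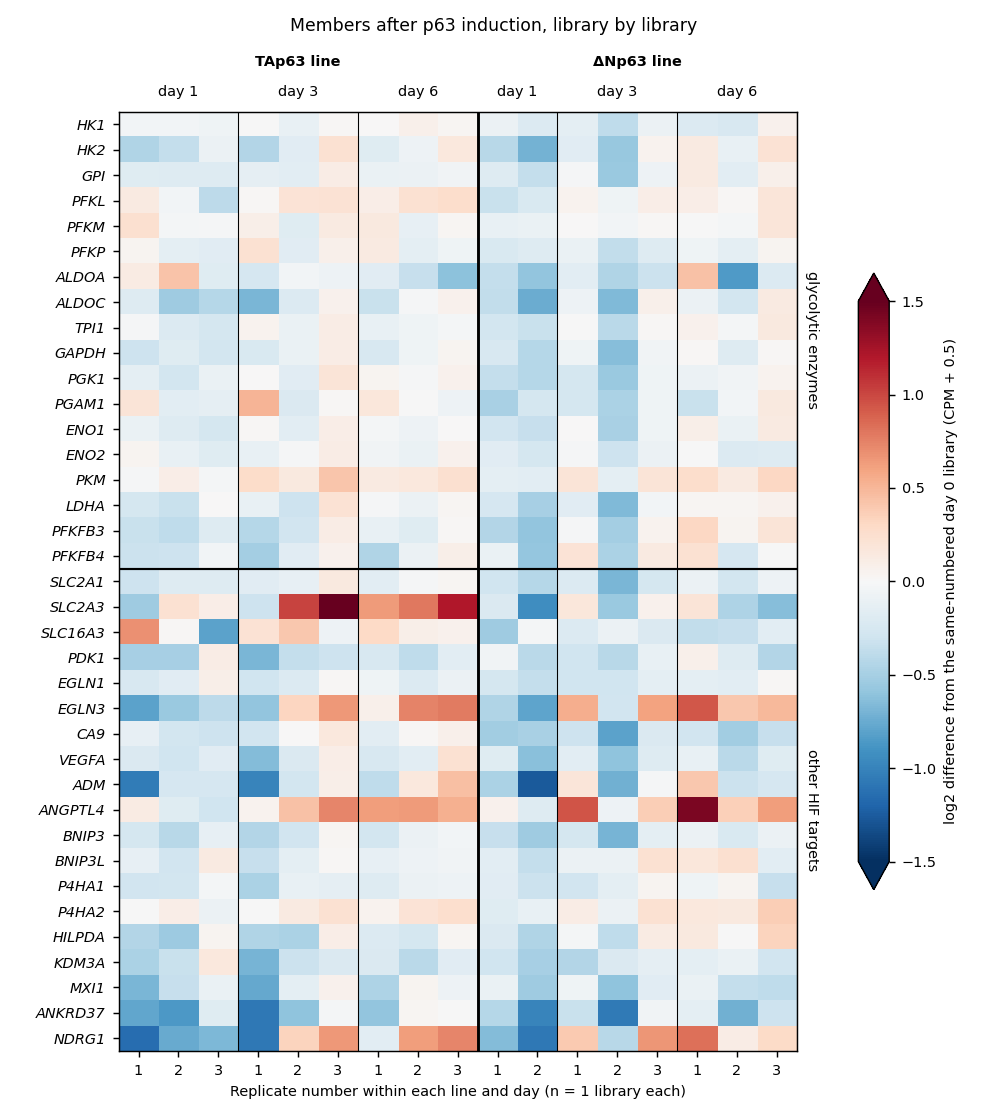
Log2 difference of each of the 37 members (rows, glycolytic enzymes above the line) from the same-numbered day 0 library, for each line, day and replicate number (columns); blue is lower and red is higher than day 0, and colours saturate at 1.5. The day 1 columns of both lines are mostly blue, replicate 2 of ΔNp63 day 3 is bluer than replicates 1 and 3, and EGLN3 and ANGPTL4 are red in all day 6 columns.

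Promoter sequence was looked at because the members are grouped by a shared factor. RefSeq windows of 300 bases (GRCh38.p14, 250 before the start site and 50 after) were matched by symbol for 32 of 37 members; SLC2A3, VEGFA, HILPDA, BNIP3L and NDRG1 are named only. The HIF cores ACGTG and GCGTG were searched on both strands, and a palindromic CACGTG counts once on each. ACGTG was present in 14 of 32 member windows (43.8%), in 21.6% of all 27305 windows and in 25.9% of the windows of tested genes. GCGTG was present in 13 (40.6%), in 36.3% of all and in 49.2% of tested genes' windows. At least 1 of the cores was in 22 windows (68.8%), with 48.4% of all windows and 61.5% of those of tested genes, so the share for GCGTG was below that of tested genes and that for ACGTG above it. The p53-family response element core was in 0 of the 32 windows, in 4.86% of all windows and in 3.54% of tested genes' windows, and no match says only that these letters are not in these windows.

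The 250 bases before the start site are printed for 5 members on which the results below turn, in lower case and 5′ to 3′ on the gene's strand, with HIF cores in capitals. CA9, ANKRD37 and BNIP3 fell at ΔNp63 day 3 in the paired fit, ADM fell at ΔNp63 day 1, and EGLN3 rose at day 6 of both lines and is shown as a window with no core. The printed genes do not show a rule for direction. HK1, PFKP and PDK1 were called lower in that fit with no core in their windows. PKM and ANGPTL4 were called higher, and each window held 1 core. SLC2A1, HK2, GAPDH, PGK1, LDHA, EGLN1 and KDM3A were called lower and held cores. A link between cores and direction was not tested.
CA9, chr9:35673678-35673927 (+): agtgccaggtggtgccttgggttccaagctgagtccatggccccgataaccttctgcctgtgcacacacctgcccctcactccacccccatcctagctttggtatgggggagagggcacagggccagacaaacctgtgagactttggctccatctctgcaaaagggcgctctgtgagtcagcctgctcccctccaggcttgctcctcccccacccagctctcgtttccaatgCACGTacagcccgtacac
ANKRD37, chr4:185396591-185396840 (+): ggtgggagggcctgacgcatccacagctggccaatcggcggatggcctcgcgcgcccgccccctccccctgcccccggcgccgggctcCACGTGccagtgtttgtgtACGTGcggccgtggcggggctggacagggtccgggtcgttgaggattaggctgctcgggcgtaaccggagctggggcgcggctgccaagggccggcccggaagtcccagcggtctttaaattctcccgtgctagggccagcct
BNIP3, chr10:131981924-131982173 (−): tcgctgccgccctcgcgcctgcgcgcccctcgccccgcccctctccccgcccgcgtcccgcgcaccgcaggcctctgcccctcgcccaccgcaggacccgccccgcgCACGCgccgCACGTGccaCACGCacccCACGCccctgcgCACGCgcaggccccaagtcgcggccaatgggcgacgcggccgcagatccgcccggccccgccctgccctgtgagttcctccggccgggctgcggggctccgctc
ADM, chr11:10304823-10305072 (+): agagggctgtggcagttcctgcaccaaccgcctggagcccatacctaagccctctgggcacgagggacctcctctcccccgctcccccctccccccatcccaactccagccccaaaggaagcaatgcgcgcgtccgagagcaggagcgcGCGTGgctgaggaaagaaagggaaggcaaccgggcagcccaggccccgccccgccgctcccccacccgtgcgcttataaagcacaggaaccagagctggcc
EGLN3, chr14:33951075-33951324 (−): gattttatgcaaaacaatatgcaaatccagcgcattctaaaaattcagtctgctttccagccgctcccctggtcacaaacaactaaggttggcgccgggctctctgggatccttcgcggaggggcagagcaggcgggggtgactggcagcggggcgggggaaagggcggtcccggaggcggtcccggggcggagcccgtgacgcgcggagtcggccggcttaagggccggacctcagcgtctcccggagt
Counted from the start site, the first base of the CA9 core lay at -18 and that of the ADM core at -101. ANKRD37 held 3 cores, at -162, -161 and -143, and BNIP3 held 6 between -143 and -104. A match is a description of letters and not a bound site.

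Of the transporters, SLC2A1 encodes the glucose transporter GLUT1 (hg38, chromosome 1, 42925375 to 42958868). At ΔNp63 day 3 it was at 122, 82.7 and 82.8 CPM, against 141, 133 and 99.2 CPM at day 0 of that line. It was lower in all 3 same-numbered pairs, although replicate 1 of day 3 lay above replicate 3 of day 0. It fell by 0.39 on the log2 scale (SE 0.08, adjusted p = 6.01e-04 by edgeR in the paired fit), and the 24-library fit gave -0.38 with an adjusted p of 0.593. It was 1 of 11 members lower and 0 higher in the paired fit at that day, 5 of them glycolytic enzymes, where 11.3% of all genes were called lower and 12.2% higher, 23.5% in all. In the TAp63 line SLC2A1 was at 133, 107 and 103 CPM at day 3, against 150, 117 and 93.6 CPM at day 0, groups that overlapped.

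CA9, carbonic anhydrase IX, which sets pH outside acid-exporting cells, was lower at the same day (chromosome 9, 35673928 to 35681157). At ΔNp63 day 3 CA9 was at 1122, 884 and 921 CPM, against 1391, 1537 and 1069.5 CPM at day 0, lower in every pair although replicate 1 of day 3 lay above replicate 3 of day 0. The change was -0.44 ± 0.10 (SE, adjusted p = 0.00317 by edgeR in the paired fit), and 0.596 was the adjusted p in the 24-library fit. At day 6 it was at 1135, 1069.5 and 843 CPM in ΔNp63 cells and the paired change was -0.39 ± 0.10 (adjusted p = 0.0115 by edgeR), again lower in all 3 pairs. The day 6 call was lost without replicate 1 or 2 of day 0 or replicate 2 or 3 of day 6 (highest adjusted p = 0.0888 by edgeR). The same gene in TAp63 cells was at 1056, 1373 and 1240 CPM at day 3 and 1153, 1380 and 1171 CPM at day 6, against 1291, 1366 and 1111 CPM at day 0. Those groups overlapped, and the difference between the lines was not called for CA9 at either day. SLC2A1 and CA9 at ΔNp63 day 3 were the 2 of 24 member calls of the paired fit that held when each further library of the groups compared was left out in turn.

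Glycolytic enzymes that fell at ΔNp63 day 3 in the paired fit came from several steps of the pathway. PGK1, which makes the pathway's first ATP, was at 622, 600 and 638 CPM, against 744, 883 and 670 CPM at day 0. These groups did not overlap, and PGK1 changed by -0.29 ± 0.08 (SE, adjusted p = 0.00797 by edgeR). LDHA, the lactate dehydrogenase subunit, was at 584, 404 and 491 CPM, against 658, 637 and 504 CPM at day 0, with a change of -0.28. GAPDH was at 5718, 4685 and 4431 CPM, against 5994, 7278 and 4603 CPM, with a change of -0.25. The groups of both genes overlapped, and replicate 2 held the widest gap in each. HK1 and PFKP, a hexokinase and a phosphofructokinase of the first steps, changed by -0.21 and -0.22. HK1 was at 196, 132 and 138 CPM, against 216, 172 and 146 CPM at day 0, and PFKP at 609, 378 and 394 CPM, against 652, 489 and 450 CPM. Both groups overlapped while every pair was lower, and the adjusted p-values of these 4 enzymes lay between 0.0258 and 0.038 by edgeR.

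The other members that fell there are HIF targets outside the pathway. VEGFA, the blood vessel growth factor, was at 345, 271 and 304 CPM at ΔNp63 day 3, against 386, 414 and 347 CPM at day 0. BNIP3, a mitophagy receptor, was at 58.3, 67.2 and 72.9 CPM, against 70.3, 109 and 81.0 CPM. EGLN1, the main oxygen-sensing prolyl hydroxylase, was at 107, 93.0 and 97.7 CPM, against 132, 114 and 108 CPM. ANKRD37, an ankyrin repeat protein induced by HIF, was at 10.8, 7.87 and 9.34 CPM, against 13.7, 16.98 and 9.71 CPM, and its transcript span overlaps UFSP2 on the opposite strand over 20.6% of its length, where fragments that overlap both genes were left uncounted. The groups of VEGFA and EGLN1 did not overlap and those of BNIP3 and ANKRD37 did, with all 4 genes lower in all 3 pairs. Paired changes were -0.33, -0.38, -0.25 and -0.53 in that order, with adjusted p-values of 0.0188, 0.00343, 0.0151 and 0.022 by edgeR. With the block and all 24 libraries, 1 member was called at this day, BNIP3, where 6.89% of all genes were.

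Replicate 2 carried much of the ΔNp63 day 3 result. The median member difference from day 0 was -0.07 in replicate 1, -0.45 in replicate 2 and -0.05 in replicate 3. Without replicate 2 of ΔNp63 day 3 the paired fit called CA9 and SLC2A1 lower and EGLN3 higher, and without replicate 2 of its day 0 it called BNIP3, CA9 and SLC2A1. Leaving out any other library of these groups left 7 to 13 members lower and 0 higher. Beside replicate 2, the calls of HK1, LDHA, GAPDH, PFKP and EGLN1 were lost without replicate 1 of day 0, those of HK1 and PFKP without replicate 3 of day 3, that of PFKP without replicate 3 of day 0, and that of EGLN1 without replicate 1 of day 3.

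**Figure D3:**
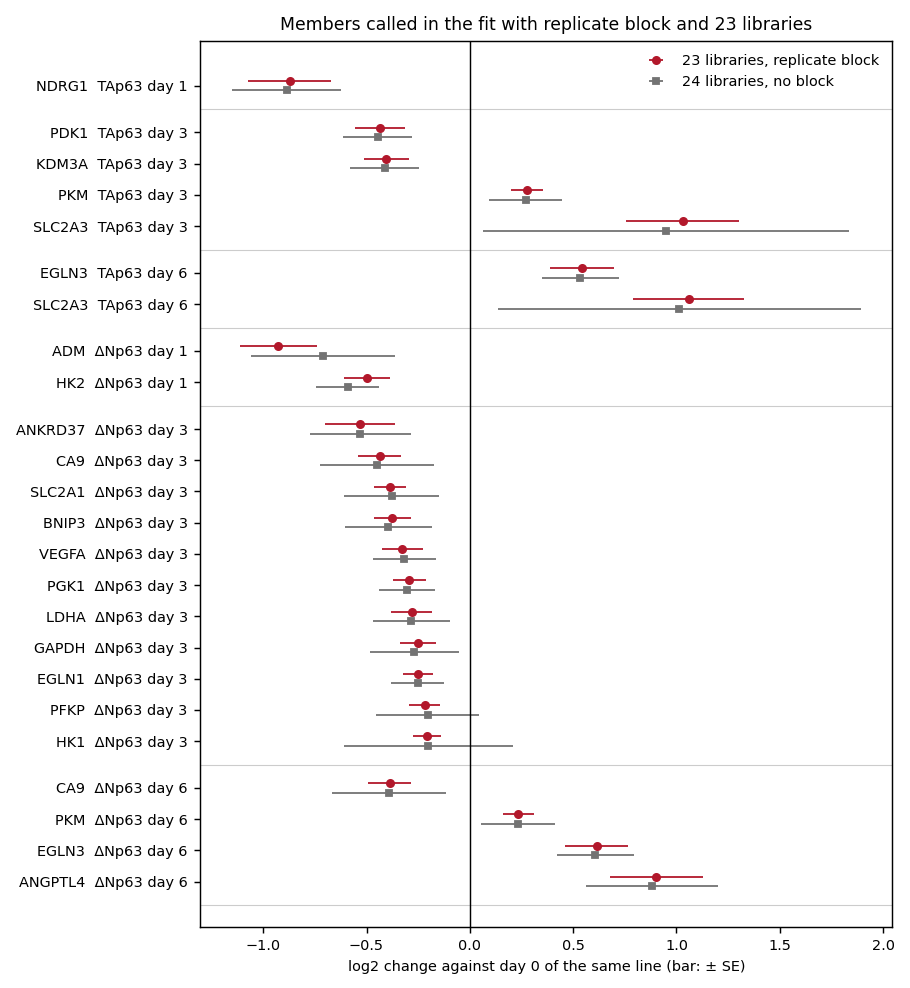
Log2 change against day 0 of the same line (x axis, bars are ± SE) for the 24 member calls of the paired fit (rows), from the paired fit with 23 libraries (red circles) and the fit with 24 libraries and no block (grey squares). The estimates differ most for ADM at ΔNp63 day 1, and the bars of the 24-library fit are wider.

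NDRG1 had the lowest change of the 37 members at TAp63 day 1. It encodes a stress-responsive protein raised by hypoxia and in differentiation. It was at 155, 133 and 129 CPM at TAp63 day 1, against 341, 225 and 206 CPM at day 0, and all day 1 libraries lay below all day 0 libraries. The change was -0.87 ± 0.20 (SE, adjusted p = 0.0281 by edgeR in the paired fit), and the 24-library fit gave an adjusted p of 0.848. NDRG1 was the single member of 37 called at that day, where the paired fit called 0.539% of all genes higher and 0.348% lower, 0.887% in all. The call was lost without replicate 1 or 2 of day 0 or replicate 2 of day 1 (highest adjusted p = 0.292 by edgeR). At day 3 TAp63 cells held 162, 283 and 324 CPM, and at day 6 they held 306, 347 and 343 CPM. Both ranges overlapped that of day 0. At each of these days replicate 1 was lower and replicates 2 and 3 were higher than their day 0 partners. In ΔNp63 cells NDRG1 was at 163 and 155 CPM in the first replicates of day 1 and 83.1 CPM in the library that stood apart, against 256.5, 328 and 223 CPM at day 0, with a paired change of -0.79 (adjusted p = 0.103 by edgeR). It was at 336, 246 and 352 CPM at ΔNp63 day 3, lower than day 0 in replicate 2 and higher in replicates 1 and 3. At ΔNp63 day 6 it was at 454, 356 and 273 CPM, higher in all 3 pairs though the groups overlapped. Neither of these days was called for NDRG1.

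ADM and HK2 fell at ΔNp63 day 1 in the paired fit, 2 of 37 members where 0.551% of all genes were called higher and 0.298% lower, 0.849% in all. ADM encodes adrenomedullin, a vasodilator peptide, and was at 10.1 and 6.88 CPM in replicates 1 and 2. The library that stood apart held 7.98 CPM, and day 0 held 14.2, 17.1 and 9.71 CPM. The groups overlapped and both remaining pairs were lower, with a paired change of -0.93 ± 0.19 (SE, adjusted p = 0.0101 by edgeR). HK2, the inducible hexokinase, was at 290, 227 and 192 CPM in replicates 1 to 3 of day 1, against 387, 372 and 315 CPM at day 0. Replicates 1 and 2 lay below every day 0 library, and HK2 changed by -0.50 ± 0.11 in the paired fit (adjusted p = 0.0242 by edgeR). Both calls rest on 2 libraries at day 1 and were lost without either of them or without replicate 2 of day 0, that of HK2 also without replicate 1 of day 0, with the highest adjusted p at 0.35 for ADM and 0.44 for HK2 by edgeR. At TAp63 day 1 the same genes were at 9.81, 10.1 and 6.30 CPM for ADM, against 20.8, 12.04 and 7.59 CPM at day 0, and at 273, 256 and 264 CPM for HK2, against 374, 328 and 279 CPM. HK2 groups did not overlap and ADM groups did, and neither passed the test there.

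The 5 DESeq2 calls at ΔNp63 day 1 were HK2, PFKFB3, EGLN3 and NDRG1 lower and SLC2A3 higher. SLC2A3 was at 84.5 CPM in the library that stood apart, while the other libraries of that group held 2.97 and 1.72 CPM, against 3.54, 3.75 and 2.49 CPM at day 0. PFKFB3, which makes the allosteric activator of phosphofructokinase, was at 162 and 148 CPM in those libraries and 99.1 CPM in the one apart, against 221, 223 and 184 CPM at day 0. It was lower in both pairs, with a paired change of -0.45 (adjusted p = 0.0641 by edgeR).

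At TAp63 day 3 the paired fit called 2 members higher and 2 lower, where 3.2% of all genes were called higher and 1.37% lower, 4.57% in all. SLC2A3, the glucose transporter GLUT3, was at 3.62, 5.08 and 7.32 CPM, against 4.62, 2.27 and 1.80 CPM at day 0. Replicate 1 was lower and replicates 2 and 3 were higher than their day 0 partners, so the groups overlapped. The change was 1.03 ± 0.27 (SE, adjusted p = 0.0254 by edgeR), from 35 to 112 counts per library at day 3 and 30 to 47 at day 0. PKM, pyruvate kinase of the last step, was at 1531, 1330 and 1281 CPM, against 1269, 1205 and 963 CPM at day 0. Its groups did not overlap, and it rose by 0.28 ± 0.08 (adjusted p = 0.0311 by edgeR in the paired fit). PDK1, which keeps pyruvate out of the mitochondria by inhibiting pyruvate dehydrogenase, was at 29.7, 40.5 and 38.8 CPM, against 48.2, 52.1 and 48.4 CPM. KDM3A, a histone H3 lysine 9 demethylase, was at 44.9, 58.0 and 50.5 CPM, against 73.2, 72.9 and 58.8 CPM. Neither group overlapped with day 0, and the changes were -0.44 for PDK1 and -0.40 for KDM3A (adjusted p = 0.0325 and 0.0263 by edgeR). The PDK1, KDM3A and PKM calls were lost without replicate 1 of day 0, replicate 2 of day 0, or replicate 1 or 3 of day 3, and that of PKM also without replicate 3 of day 0. The SLC2A3 call was lost without replicate 2 or 3 of either day. The highest adjusted p for these 4 genes was 0.204 by edgeR.

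By day 6 the oxygen sensor EGLN3 was up in both lines. EGLN3, a prolyl hydroxylase that is itself a strong HIF target, was at 147, 191 and 174 CPM in TAp63 cells, against 139, 114 and 102 CPM at day 0. In ΔNp63 cells it was at 220, 205 and 161 CPM, against 114, 156 and 115 CPM. The groups did not overlap in either line, and the paired changes were 0.54 ± 0.15 for TAp63 and 0.61 ± 0.15 for ΔNp63 (SE, adjusted p = 0.0479 and 0.00678 by edgeR). At day 1 the same gene had been low, at 80.0, 77.3 and 77.4 CPM in TAp63 cells and 83.7 and 89.5 CPM in ΔNp63 cells, where the paired changes were -0.58 in each line (adjusted p = 0.0881 and 0.137 by edgeR). At day 3 EGLN3 was at 92.6, 143 and 159 CPM in TAp63 cells and 167, 127 and 175 CPM in ΔNp63 cells. Replicates 2 and 3 of TAp63 and replicates 1 and 3 of ΔNp63 were already above their day 0 partners. Neither day 3 change was called in the full paired fit. In both lines EGLN3 lay below every day 0 library at day 1 and above every one at day 6. Its TAp63 call at day 6 was lost without replicate 2 or 3 of either day, and its ΔNp63 call without replicate 1 or 3 of day 0 or replicate 1 of day 6 (highest adjusted p = 0.271 and 0.0817 by edgeR).

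ANGPTL4, a secreted inhibitor of lipoprotein lipase, also rose at ΔNp63 day 6. It was at 8.49, 5.54 and 6.48 CPM, against 2.88, 4.20 and 4.004 CPM at day 0, all above day 0. The paired change was 0.90 ± 0.23 (SE, adjusted p = 0.00654 by edgeR), and the call was lost only without replicate 1 of day 6 (adjusted p = 0.15 by edgeR). TAp63 cells held 4.07, 5.75 and 5.74 CPM at day 6, against 2.46, 3.53 and 3.82 CPM. These groups did not overlap and all 3 pairs were higher, but the change was not called. The difference between the lines' responses was not called for ANGPTL4 either. PKM was at 1643, 1430 and 1235 CPM at ΔNp63 day 6, against 1365, 1306 and 994 CPM at day 0, higher in all 3 pairs though the groups overlapped, with a change of 0.24 (adjusted p = 0.0355 by edgeR). That call held without replicate 2 of day 0 and was lost without any other library of the groups (highest adjusted p = 0.171 by edgeR). With ANGPTL4, EGLN3 and PKM higher and CA9 lower, 4 of 37 members were called there, where 8.14% of all genes were called higher and 5.94% lower, 14.1% in all. In TAp63 cells at day 6 the paired fit called SLC2A3 and EGLN3, 2 of 37, where 2.95% of all genes were called higher and 0.646% lower, 3.6% in all. SLC2A3 was at 7.50, 4.31 and 4.82 CPM there, against 4.62, 2.27 and 1.80 CPM, higher in all 3 pairs, and changed by 1.06 ± 0.27 (adjusted p = 0.022 by edgeR). The call was lost without replicate 1 or 3 of day 6 or replicate 2 or 3 of day 0 (highest adjusted p = 0.178 by edgeR).

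**Figure D4:**
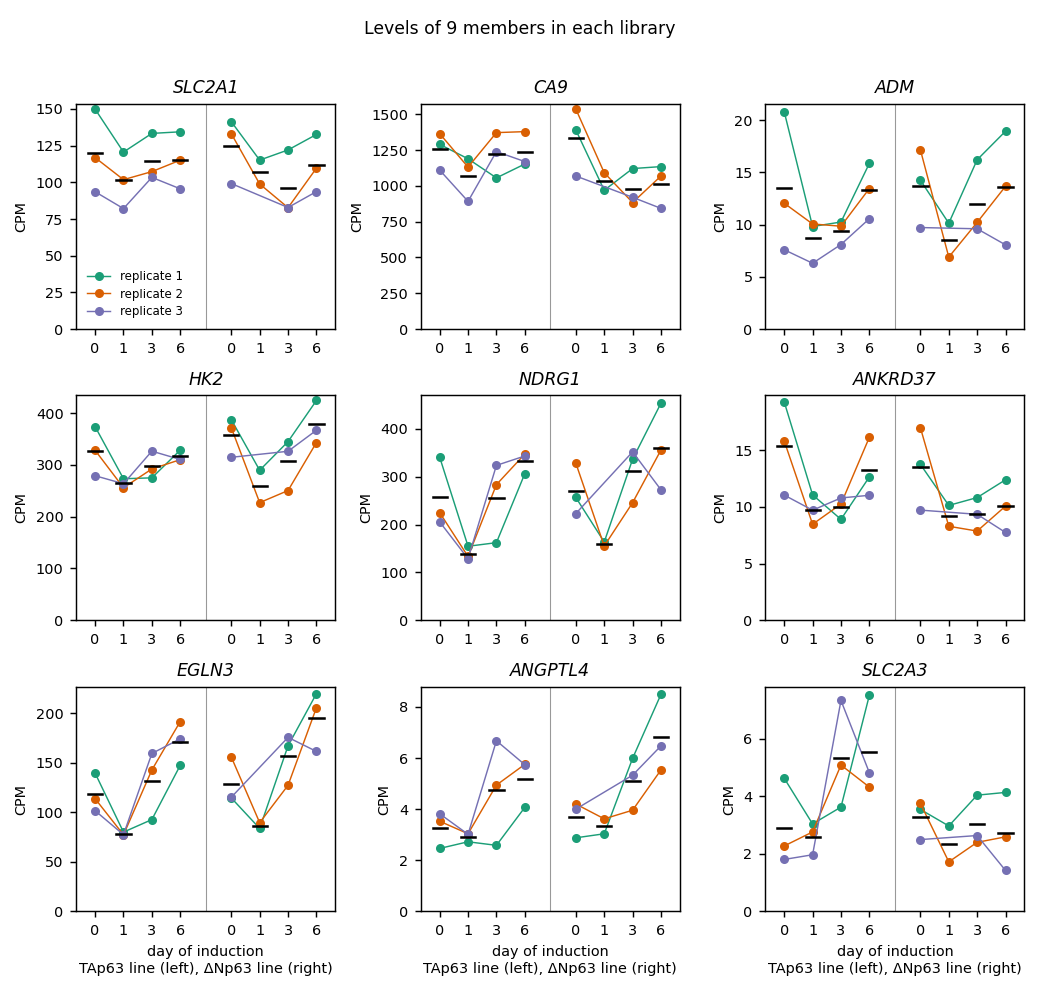
CPM (y axis, from 0) of 9 members in each library by day of induction (x axis, days spaced evenly), TAp63 line left and ΔNp63 line right in each panel; coloured lines join libraries of the same replicate number, black bars are group means, and the library that stood apart is left out. NDRG1, EGLN3, HK2 and ANKRD37 are below their own day 0 libraries at day 1, SLC2A1 and CA9 are lower at day 3 in all 3 pairs of ΔNp63 cells, and EGLN3 and ANGPTL4 are high at day 6.

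The other 17 members were called in neither fit. Among the glycolytic enzymes these were GPI, PFKL, PFKM, ALDOA, ALDOC, TPI1, PGAM1, ENO1, ENO2, PFKFB3 and PFKFB4. ENO1, the main enolase, was at 1428 to 2768 CPM in the 23 libraries, and PFKL, the liver phosphofructokinase, at 209 to 398 CPM. ALDOA, the main aldolase, held 190 counts in all 24 libraries, since 77.5% of its span is shared with LOC112694756 on the same strand and fragments that overlap both genes were left uncounted, so its level is not a measure of the gene. Outside the pathway these were SLC16A3, the lactate exporter MCT4, BNIP3L, a mitophagy receptor, the collagen prolyl hydroxylases P4HA1 and P4HA2, HILPDA, a lipid droplet protein, and MXI1, a MYC antagonist. P4HA1 was at 71.5 to 111 CPM and HILPDA at 30.8 to 85.3 CPM in the 23 libraries, and both had medians at day 1 below those of day 0 in each line. At TAp63 day 1 P4HA1 was at 81.5, 83.3 and 106 CPM, against 99.7, 101 and 108 CPM at day 0, groups that overlapped.

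The members' levels also differed by replicate number. Within the 7 groups of 3 libraries, 13 members were higher in replicate 1 than in replicate 3 every time, with ADM 1.77, PGAM1 1.65, GPI 1.46 and SLC2A1 1.44 times as high on average. PFKM, ALDOA, BNIP3 and HILPDA were lower every time, with HILPDA at 0.566 times. The 8 fetal globin and erythroid markers moved with the number too. They summed to 35.7 to 76.6 CPM in replicates 1 and 2.59 to 16.9 CPM in replicates 2. In replicates 3 they summed to 1.59 to 2.84 CPM without the library that stood apart, which held 3953 CPM. The cause of that sum was not tested. HBG1 and HBG2, near-identical copies, are uncertain as single genes. The 6 tuft cell markers summed to 430 to 531 CPM at day 1, 454 to 484 CPM at day 3 and 455 to 507 CPM at day 6 of TAp63, against 601 to 622 CPM at its day 0. In ΔNp63 cells they summed to 431 to 450 CPM at day 1 without the library that stood apart, 379 to 402 CPM at day 3 and 384 to 443 CPM at day 6, against 573 to 583 CPM at day 0. The tuft sums thus lay below day 0 at all days, while the members' directions were mixed at day 6. The part of these shifts in the members' changes was not tested, and in bulk RNA fewer cells of a type and less RNA per cell cannot be told apart.

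Of 19 HIF subunits and regulators 17 were tested, and 0 were called in the 24-library fit at any day of either line, with 1 unadjusted p under 0.05 at each of days 3 and 6 of TAp63 and 0 elsewhere; DESeq2 called EPAS1 at TAp63 day 6. EPAS1, which encodes HIF-2α, was at 59.0, 71.9 and 65.5 CPM at TAp63 day 6, against 53.3, 42.5 and 45.2 CPM at day 0, groups that did not overlap. It changed by 0.42 at day 3 and 0.50 at day 6 in the paired fit (adjusted p = 0.00758 and 0.00123 by edgeR). CITED2, which competes with HIF for p300, changed by -0.36 at ΔNp63 day 1 (adjusted p = 0.0394 by edgeR in the paired fit). HIF1A stayed between 12.6 and 24.3 CPM in the 23 libraries, and EGLN2 is listed at 0 in all 24. Fragments that overlap more than 1 gene were left uncounted. Overlaps were not looked at for EGLN2, so its 0 is not read as absence.

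Among 40 other hypoxia-induced genes, 37 of them tested, the 24-library fit called 1 higher at TAp63 day 3 and 2 and 1 higher at days 3 and 6 of ΔNp63, with 0 lower. CA12, a carbonic anhydrase like CA9, was at 0.828, 0.635 and 0.257 CPM at TAp63 day 3, against 0.154, 0.0967 and 0.106 CPM at day 0, and at 2.08, 2.23 and 1.51 CPM at ΔNp63 day 3, against 0.412, 0.284 and 0.328 CPM. It rose by 2.33 and 2.49 (adjusted p = 0.0276 and 5.08e-04 by edgeR). These day 0 levels of CA12 are near the counting floor, so the size of its rise is uncertain. For scale, ALDOA at 0.462 CPM in replicate 1 of TAp63 day 0 was 3 counts. TMEM45A, a membrane protein, was at 6.17, 3.01 and 4.39 CPM at ΔNp63 day 3 and 7.17, 5.18 and 6.79 CPM at day 6, against 1.48, 1.65 and 1.25 CPM at day 0, with changes of 1.62 and 2.12 (adjusted p = 0.00513 and 3.37e-04 by edgeR). The median over the list was -0.10 at day 3 of TAp63 and -0.11 at day 3 of ΔNp63. At ΔNp63 day 1 the paired fit called DDIT4, CXCR4 and BHLHE40 lower and 0 higher, 3 of 37, where 0.298% of all genes were called lower. DDIT4, an inhibitor of mTOR signalling, was at 243 and 278 CPM in the first replicates, against 381, 486 and 401 CPM at day 0. At ΔNp63 day 3 the paired fit called 8 lower and 4 higher of 37, with DDIT4, CXCR4 and BHLHE40 again among the lower ones. Of all genes, 11.3% were called lower there and 12.2% higher. At ΔNp63 day 6 it called TMEM45A, SLC6A8, NDUFA4L2 and LOXL2 higher and KLF10 and JMJD6 lower. Of all genes, 8.14% were called higher there and 5.94% lower. At TAp63 day 3 it called CA12, PDGFB and GBE1 higher, where 3.2% of all genes were called higher. At TAp63 day 6 it called PDGFB higher, where 2.95% of all genes were.

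Among 50 other genes of glucose and pyruvate metabolism, 42 of them tested, GPD1 rose and TXNIP fell in the 24-library fit. GPD1, glycerol-3-phosphate dehydrogenase, which draws on a glycolytic intermediate, was at 6.41, 6.44 and 5.52 CPM at TAp63 day 3, against 0.77, 1.55 and 1.33 CPM at day 0. It was at 6.97, 4.41 and 5.14 CPM at ΔNp63 day 3, against 1.07, 2.50 and 1.31 CPM, and the changes were 2.26 and 1.73 (adjusted p = 0.0033 and 0.00991 by edgeR). TXNIP, which lowers glucose uptake, was at 142, 131 and 154 CPM at ΔNp63 day 3, against 228, 258 and 201 CPM at day 0, groups that did not overlap. It changed by -0.69 at day 3 and -0.71 at day 6 (adjusted p = 0.0306 and 0.0231 by edgeR). In the paired fit 8 of the 42 genes were called lower and 3 higher at ΔNp63 day 3, where 11.3% of all genes were called lower and 12.2% higher, among the lower ones PDHA1 and DLAT, subunits of pyruvate dehydrogenase, at -0.23 and -0.34.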

How the data were processed

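Total RNA came from TRIzol extraction and NEBNext Ultra library preparation, per the labels' protocols. HISAT2 2.1.0, hg38, featureCounts 1.6.1 and DESeq2 are named in the submitters' processing notes. The deposited raw counts come from featureCounts 2.0.0 on refGene, per the file headers: fragments of read pairs anywhere between transcript ends, so introns count, with no strand option, leaving out fragments that map more than once or overlap more than 1 gene. Computed here with R 4.3.3 and edgeR 4.0.16: filterByExpr by group, TMM, glmQLFit and glmQLFTest over 24 libraries with 16 residual degrees of freedom; SE is the absolute log2 change over the root of F and is approximate. DESeq2 1.42.0 was an alternative. Pair differences use log2(CPM + 0.5). Code was tested on simulated data. All replicate pairs differed by more than counting noise (lowest chi-square per degree of freedom 5.05).

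Replicate numbers come from the titles. Over 77 same-numbered pairs of 23 libraries, deviations from group means correlated at 0.160 to 0.689, so the numbers pair the samples; with the library that stood apart, 14 of 84 pairs were at or under 0.1. That library is replicate 3 of ΔNp63 day 1. Members and gene lists were chosen with earlier results of these data known. Members were described where either fit called them, up to 20 by lowest adjusted p, and otherwise as the highest member of a role with no call. Depth limits counts under about 100 per library, as in SLC2A3, ANGPTL4 and ALDOA and, outside the members, CA12. A neuroendocrine marker and the sum that holds it are not reported here.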

Additional observations from a re-analysis of the deposited data

Results flagged for a closer look

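The lines' responses differed in 3 of the 37 other hypoxia-induced genes tested, by the interaction test of the paired fit (edgeR, 23 libraries). That fit called 0.944% of all genes at day 3 and 1.87% at day 6. The 24-library fit and DESeq2 called 0 of the differences in these 3 genes. TMEM45A differed by -1.60 on the log2 scale at day 3 and by -1.64 at day 6, TAp63 minus ΔNp63 (adjusted p = 0.0166 and 0.00659 by edgeR): it was at 1.34, 1.54 and 1.80 CPM at TAp63 day 3, against 2.31, 1.31 and 1.59 CPM at its day 0. SLC6A8, the creatine transporter, differed by -0.75 at day 6 (adjusted p = 5.64e-04 by edgeR), with 253, 202 and 186 CPM at TAp63 day 6 against 269, 222 and 163 CPM at day 0, and 465, 327 and 280 CPM at ΔNp63 day 6 against 242, 221 and 175 CPM. PDGFB, a growth factor subunit, differed by 0.75 at day 6 (adjusted p = 0.0455 by edgeR), with 23.4, 21.9 and 21.9 CPM at TAp63 day 6 against 17.6, 16.4 and 13.7 CPM at day 0, and 15.8, 12.2 and 11.1 CPM at ΔNp63 day 6 against 16.4, 18.3 and 11.7 CPM. None of the 37 members met this test.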

How the results depend on the processing

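Without a block, edgeR called 0 members in each of the 9 comparisons, and so it did with size factors by RLE, without a filter on low counts, with the groups compared alone, and without the library that stood apart. With the replicate block and without that library it called 1, 4 and 2 members at days 1, 3 and 6 of TAp63 and 2, 11 and 4 at those days of ΔNp63. The block with all 24 libraries called 1 member, at ΔNp63 day 3, and DESeq2 called 5, at ΔNp63 day 1. Leaving out each replicate in turn from the 24-library fit gave 0 to 5 members at ΔNp63 day 1, with 5 without replicate 1 or 2 of that group, which leave the library that stood apart with a single partner, and 0 in the other comparisons. Within the paired fit, leaving out each further library gave 0 to 3, 0 to 4 and 0 to 2 members at days 1, 3 and 6 of TAp63, 0 to 3, 3 to 13 and 1 to 3 at those days of ΔNp63, and 0 to 1 for the difference at day 3. Those fits, and the pair counts under RLE and a pseudocount of 2 CPM, which did not move by over 1.5 times, were chosen after seeing the data. No named member changed sign in these refits of the 24-library fit: 283 values kept their side of the threshold and 27 passed it. The members counted were those called in either fit, and the 24-library fit called 0. So 24 of the 27 are the calls of the paired fit themselves and follow from that choice. The remaining passes were of HK2 at ΔNp63 day 1 and BNIP3 at ΔNp63 day 3. Over all genes the counts were 68, 344 and 318 at TAp63 day 3, ΔNp63 day 3 and ΔNp63 day 6 in the 24-library fit, and 722, 3712 and 2221 in the paired fit. At ΔNp63 day 1 the count was 15, and 3 to 1101 with a replicate left out. The causes were not tested. Depth limits SLC2A3, ANGPTL4, ALDOA and CA12, which held few counts per library.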
